A study of Mus musculus with 12 samples.

Results

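Krüppel-like factors (KLFs) are zinc finger proteins that bind GC-rich DNA, and different members activate or repress genes through the partners they recruit. The NR4A proteins are orphan nuclear receptors whose activity is set mainly by how much protein the cell makes, since their ligand pocket is filled by bulky side chains, and their genes are switched on quickly by many extracellular signals. In macrophages and microglia, members of both families are known to respond early to stimuli and to restrain or promote inflammatory gene expression. The 10 genes described here are the KLF members Klf2, Klf3, Klf4, Klf6, Klf7, Klf10 and Klf13 and the NR4A members Nr4a1, Nr4a2 and Nr4a3, chosen by name, and all 10 were found by symbol among 14541 listed genes.

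The cells were microglia, the macrophages that live in the brain, taken with magnetic beads against CD11b from forebrains of wild-type mouse pups at postnatal days 7 to 9. They were plated at 40000 to 80000 cells per well, and RNA was collected 6 h after treatment. The Hevin group received 500 nM of recombinant Hevin, a secreted astrocyte protein encoded by Sparcl1, the LPS group received 50 ng/mL of lipopolysaccharide, a bacterial agonist of Toll-like receptor 4, and the Media group received growth medium alone. Each group holds 4 libraries, numbered 1 to 4, and all groups share genotype, age range, isolation and time in culture. Whether the 4 libraries of a group stand for different animals, litters or wells is not said in the labels, so each p-value speaks only for the spread among these libraries, which may be technical.

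The promoters of the NR4A genes are shown because these genes are known targets of CREB, the factor that binds the cAMP response element, and because the 3 genes took different courses under LPS. Sequences are from RefSeq on GRCm38.p6, cover the 250 bases before the start annotated there and are written 5′ to 3′ along the gene's strand. Capitals mark TGACG, the core of the cAMP response element, on either strand (CGTCA on the other). The full palindrome TGACGTCA would count as a pair of overlapping cores. The windows are chr15:101266596-101266845 on the plus strand for Nr4a1, chr2:57124004-57124253 on the minus strand for Nr4a2 and chr4:48045055-48045304 on the plus strand for Nr4a3. RefSeq starts differ from those of the GENCODE gene spans given further on: the Nr4a1 window lies inside the GENCODE span of Nr4a1, and the Nr4a3 and Klf2 windows reach past the GENCODE starts.
Nr4a1: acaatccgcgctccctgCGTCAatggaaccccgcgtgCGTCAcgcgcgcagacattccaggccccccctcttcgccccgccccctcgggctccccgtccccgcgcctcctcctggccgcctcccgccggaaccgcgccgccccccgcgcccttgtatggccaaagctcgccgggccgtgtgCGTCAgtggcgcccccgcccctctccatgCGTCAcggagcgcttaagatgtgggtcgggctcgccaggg
Nr4a2: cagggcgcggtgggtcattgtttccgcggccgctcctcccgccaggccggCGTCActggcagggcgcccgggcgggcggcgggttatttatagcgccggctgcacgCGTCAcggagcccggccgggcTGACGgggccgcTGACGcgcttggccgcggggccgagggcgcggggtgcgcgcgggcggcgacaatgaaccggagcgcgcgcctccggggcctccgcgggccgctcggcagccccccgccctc
Nr4a3: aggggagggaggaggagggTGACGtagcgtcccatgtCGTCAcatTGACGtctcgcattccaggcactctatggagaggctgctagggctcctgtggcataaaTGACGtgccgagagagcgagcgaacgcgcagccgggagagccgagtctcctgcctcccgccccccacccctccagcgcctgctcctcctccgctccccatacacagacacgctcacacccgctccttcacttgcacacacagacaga

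Each NR4A window holds 4 such cores. In Nr4a1 they begin 233, 213, 69 and 40 bases before the start. In Nr4a2 the distances are 200, 144, 123 and 111 bases, and in Nr4a3 they are 231, 213, 205 and 147 bases. At least 1 core is in 17.7% of the 32817 promoter windows of the same length, and at least 4 are in 45 of them (0.137%). Of the 9 members with a promoter entry, all but Klf10, the windows of Klf2, Klf4 and Klf13 hold 1 core each, and those of Klf3, Klf6 and Klf7 hold 0.

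The Klf2 window, chr8:72318812-72319061 on the plus strand, is shown because this promoter is known for its MEF2 site, through which the kinase ERK5 drives Klf2 in endothelial cells. Capitals mark the match to the MEF2 consensus.
Klf2: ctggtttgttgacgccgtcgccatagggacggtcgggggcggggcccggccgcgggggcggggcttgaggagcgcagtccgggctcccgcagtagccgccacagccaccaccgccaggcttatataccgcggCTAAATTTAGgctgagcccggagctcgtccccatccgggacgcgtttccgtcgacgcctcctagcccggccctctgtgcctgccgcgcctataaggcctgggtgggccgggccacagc

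The match begins 118 bases before the Klf2 start. MEF2 matches on either strand are in 2.92% of all windows, and among the members Nr4a2 holds 1 as well. The GC box GGGCGG, the kind of site that KLF proteins bind, was found in all 9 windows, with 6 matches in Klf3, 4 in Klf4 and Nr4a2, 3 in Klf13 and Nr4a1, 2 in Klf2 and 1 in Klf6, Klf7 and Nr4a3, against at least 1 match in 32.7% of all windows. The full cAMP response element (1.55% of windows), the AP-1 site TGANTCA (6.75%), the NR4A monomer site AAAGGTCA (1.34%) and the NF-κB and CArG consensus sites (7.25% and 1.47%) had 0 matches in these windows of the 9 members.

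Gene levels are FPKM, fragments scaled by gene length and library size, as the authors deposited them. Whole reads recovered from the FPKM steps put the depth at 18343996 to 27361665 reads in listed genes per library. Of the listed genes, 11242 reached 1 FPKM in at least 4 libraries and were tested with limma on log2(FPKM + 1), and all 10 members were among them. Microglia markers were present in every library, and their summed level over 11 genes was 1238 to 1857 FPKM in Hevin, 603 to 898 FPKM in LPS and 687 to 960 FPKM in Media. Limma called 6 of these 11 higher in Hevin than in Media and 2 lower in LPS than in Media, and their part in the members' values was not tested. Markers of border macrophages, which also carry CD11b, summed to 612 to 814 FPKM over 6 genes in Hevin, 684 to 852 FPKM in LPS and 808 to 939 FPKM in Media. Of these 6, Ms4a7 (0.91) and F13a1 (0.33) were higher and Mrc1 (-1.16) was lower in Hevin than in Media, and Cd163 (0.61) was higher in LPS than in Media by limma, and their part was not tested either. In these bulk libraries, fewer cells of a type and less RNA per cell cannot be told apart. Libraries of number 2 stood apart in all groups by their neutrophil and monocyte markers, led by S100a8 and S100a9, with a summed level of 1425 to 1499 FPKM against 30.3 to 90.1 FPKM in the other numbers. Endothelial markers followed the number as well, at 28.4 to 31.7 FPKM in number 1 and 149 to 167 FPKM in number 3, with 0 of 8 called in either treatment against Media by limma or limma-voom and 0 at an unadjusted p under 0.05. With the block, 1 of the 8 was higher in Hevin than in Media, Pecam1 (0.77, adjusted p = 8.42e-05), 1 was lower, Ly6c1 (-0.47, adjusted p = 0.0482), and 0 were called in LPS against Media. Over all tested genes, limma called 4.27% higher and 3.10% lower in Hevin, and 13.2% and 12.6% in LPS, against Media. With the block these shares were 10.8% and 10.6% in Hevin and 21.5% and 22.2% in LPS.

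Per length of gene, the members covered a wide range. Klf6 was the most abundant, at a mean of 439 FPKM over the 12 libraries and rank 80 of all listed genes by mean level. Nr4a1 followed at 64.7 FPKM, Klf3 at 50.2 FPKM and Klf10 at 29.8 FPKM. Klf4 (21.9 FPKM), Klf13 (18.1 FPKM), Klf2 (17.9 FPKM) and Klf7 (13.4 FPKM) formed a middle range, in which Klf13 and Klf2 differed by less than their spread. Nr4a2 (7.61 FPKM) and Nr4a3 (5.66 FPKM) were the lowest. Read support did not follow this order throughout: Klf6 rested on 30993 to 63069 reads per library, Klf7 on 242 to 583 reads, Nr4a2 on 240 to 985 reads and Nr4a3 on 405 to 1364 reads. Klf6 alone made up 61.2% to 71.1% of the summed FPKM of the 7 KLF members in Hevin libraries, 78.2% to 82.9% in LPS libraries and 70.9% to 77.3% in Media libraries.

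**Figure D1:**
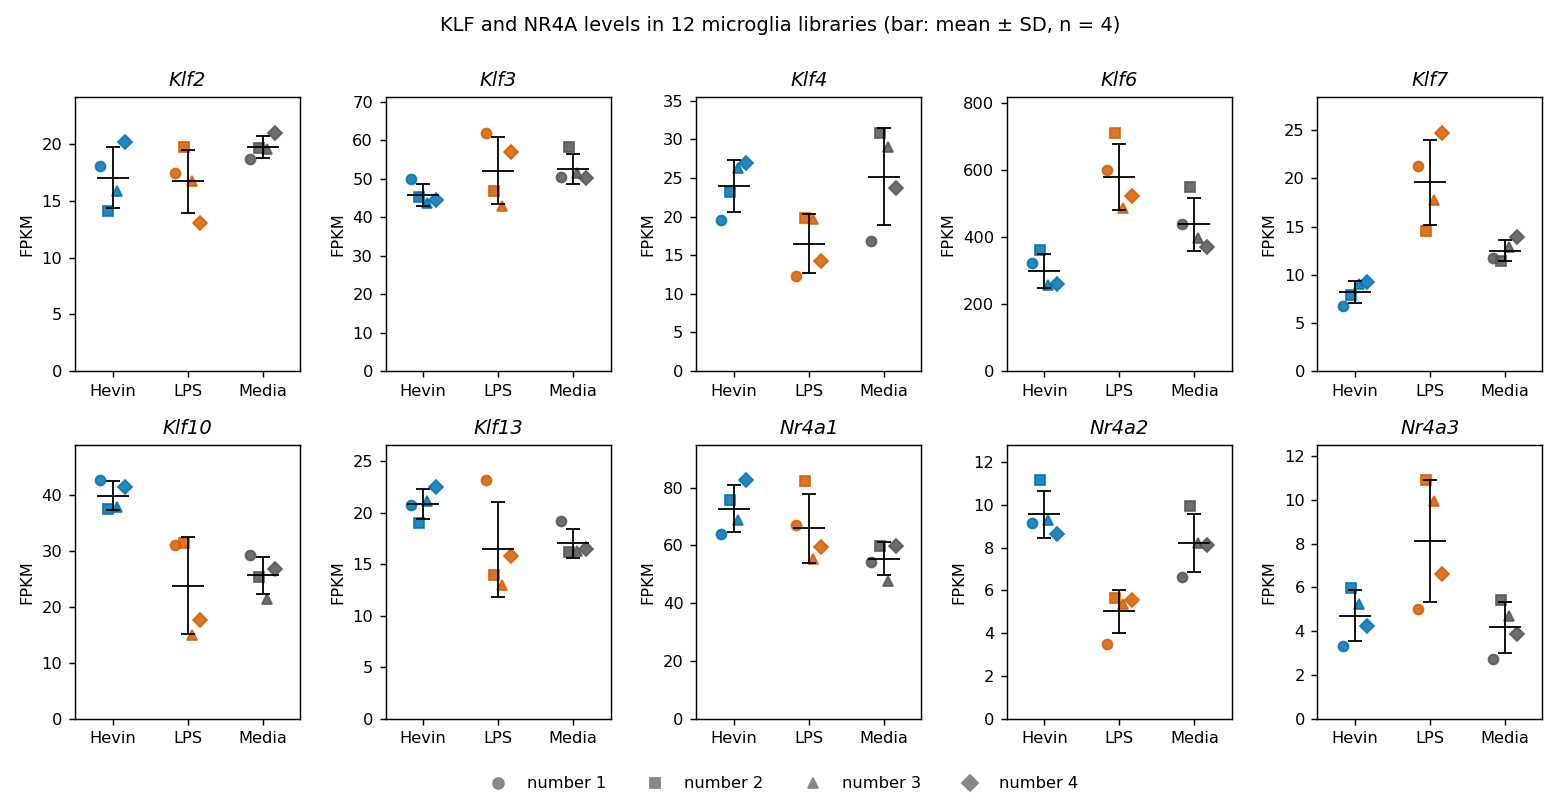
FPKM of each member by treatment, with 1 point per library, point shapes for the 4 replicate numbers, and bars for the mean and SD (n = 4 per group). Each vertical axis starts at 0. Klf6 and Klf7 lie lowest in Hevin and highest in LPS, Klf10 lies highest in Hevin, and Nr4a2 lies lowest in LPS; the Klf6 difference between LPS and Media turns round under quantile normalization.

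The first question of the design is what Hevin does to these regulators relative to Media. Klf7 fell, Klf6 was lower and Klf10 and Nr4a1 were higher in every Hevin library than in any Media library. At an adjusted p under 0.05 (Benjamini-Hochberg over 11242 genes), limma called 0 of 10 members higher, against a background of 4.27% of all tested genes, and 1 lower, Klf7, against 3.10%. At an unadjusted p under 0.05, 2 members were higher and 2 lower. The share of all genes at that threshold was not counted, so the unadjusted counts in this text have no background. After adjustment, limma-voom on the recovered reads called 0 members in either direction, against 512 genes higher and 353 lower of all 11242. All 12 pairs of libraries with the same number deviated together from their group means. These correlations did not clearly separate numbers 3 and 4, since LPS 4 gave 0.528 with Media 3 and 0.230 with Media 4. Pairing across groups by replicate number thus rests on how the submitters labelled their columns. A model with that number as a block called 2 members higher, Klf10 and Nr4a1 (background 10.8%), and 2 lower, Klf6 and Klf7 (background 10.6%). Within numbers, 5 members were higher in Hevin than in Media in all 4 (Klf10, Klf13, Nr4a1, Nr4a2 and Nr4a3, background 23.4%) and 4 were lower in all 4 (Klf2, Klf3, Klf6 and Klf7, background 23.6%). The median log2 fold change of the 10 members was 0.05, against 0.00 over all tested genes.

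The second comparison sets LPS against Media, a standard inflammatory stimulus. Klf7 and Nr4a3 rose and Nr4a2 fell, so 2 members were called higher (background 13.2%) and 1 lower (background 12.6%). With the block, Klf6 joined the higher members (3, background 21.5%) and Klf4 the lower ones (2, background 22.2%). The same 3 and 2 members were higher (background 25.8%) or lower (background 28.1%) in LPS in all 4 numbers. The median was -0.05 for the members and -0.02 over all tested genes. This comparison uses the same Media libraries as the first, so the members' values in each are set side by side below and not correlated.

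Set directly against each other, Hevin and LPS differed at 6 members by limma at the same threshold. Klf10, Nr4a2 and Klf4 were higher in Hevin (3 of 10, background 22.0%) and Klf7, Klf6 and Nr4a3 were lower (3 of 10, background 19.7%). With the block, Klf13 was added to the higher members (4, background 29.9%), and the lower ones numbered 3 (background 28.0%). In all 4 numbers, 3 members were higher in Hevin (background 32.8%) and 3 lower (background 30.5%). Libraries did not overlap for Klf10 and Nr4a2, higher in Hevin (2 of 10, background 20.0%), and for Klf6 and Klf7, lower in Hevin (2 of 10, background 17.5%). In this comparison the members' shares stood near the background.

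**Figure D2:**
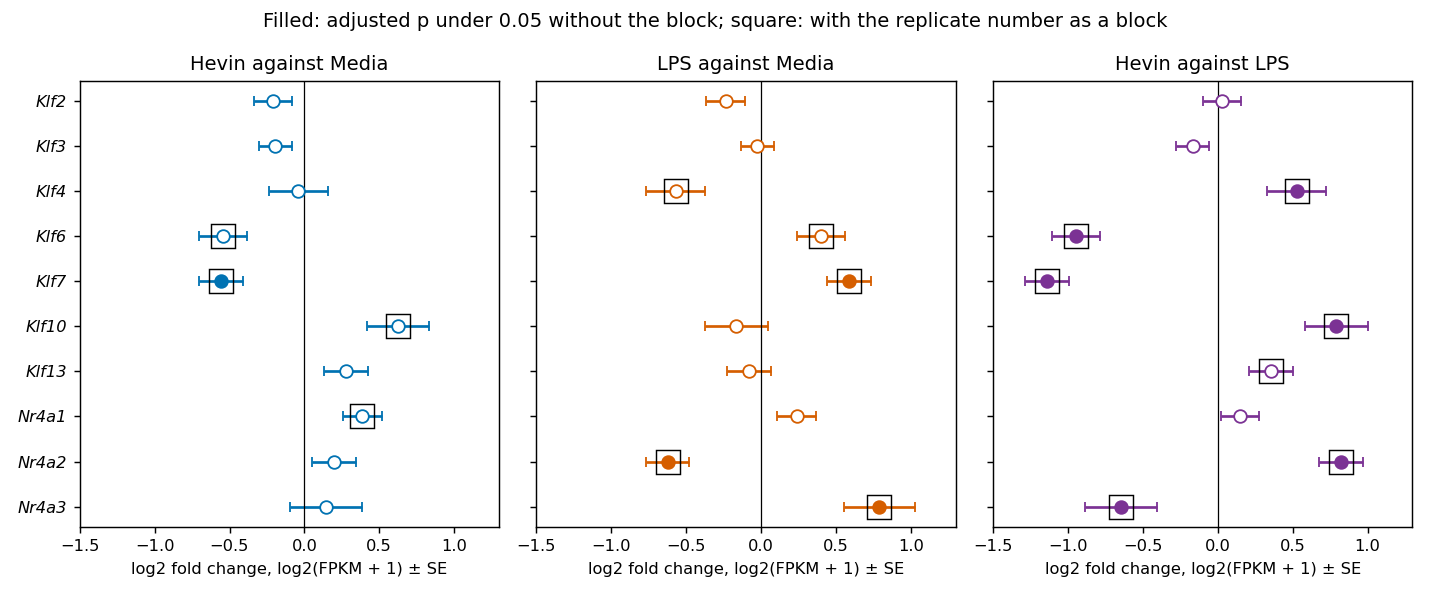
Log2 fold change of each member on the log2(FPKM + 1) scale with its SE, for Hevin against Media, LPS against Media and Hevin against LPS. Filled points have an adjusted p under 0.05 in limma without the block, and squares mark those called once the replicate number is in the model; the LPS against Media values of Klf6 (quantile normalization) and Nr4a1 (quantile normalization, no scaling factors) change sign under another scaling.

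Klf6 (ENSMUSG00000000078.7, chr13:5861482-5870394, plus strand, GRCm38) encodes a broadly expressed activator that is known in macrophages to promote inflammatory gene expression. Klf6 stood at 322, 361, 255 and 260.5 FPKM in Hevin libraries 1 to 4, at 599, 710.3, 486 and 522 FPKM in LPS libraries and at 437, 549.6, 398 and 369 FPKM in Media libraries. Every Hevin library was below every Media library, while LPS and Media overlapped. The group means were 299.7 ± 50.8 FPKM in Hevin, 579 ± 99.2 FPKM in LPS and 438 ± 79.1 FPKM in Media (SD, n = 4 each).

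In Hevin against Media the log2 fold change of Klf6 was -0.55 ± 0.16 (SE), which limma did not call without the block (adjusted p = 0.0619) and called with it (adjusted p = 8.15e-05). The differences within numbers 1 to 4 were close to each other, at -0.44, -0.61, -0.64 and -0.50. In LPS against Media the log2 fold change was 0.40 ± 0.16 (adjusted p = 0.0850, and 0.000252 with the block), with 0.45, 0.37, 0.29 and 0.50 within numbers. In Hevin against LPS Klf6 fell by 0.95 on the log2 scale (SE 0.16, limma adjusted p = 0.000607), a ratio of means of 0.517. The Klf6 values depended on the scaling, and under quantile normalization the LPS against Media value turned to -0.18 and the Hevin against LPS value shrank to -0.32 (adjusted p = 0.145).

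Klf7 (ENSMUSG00000025959.13, chr1:64029447-64122282, minus strand), known for axon growth in neurons and for holding back fat cell differentiation, moved in opposite directions under the treatments. It had 6.76, 7.88, 9.02 and 9.23 FPKM in Hevin libraries 1 to 4, 21.3, 14.5, 17.8 and 24.7 FPKM in LPS libraries and 11.8, 11.5, 12.9 and 13.9 FPKM in Media libraries. The 3 groups did not overlap. The means were 8.22 ± 1.14 FPKM in Hevin, 19.6 ± 4.39 FPKM in LPS and 12.5 ± 1.10 FPKM in Media (SD, n = 4 each).

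Klf7 fell by 0.56 in Hevin against Media (SE 0.15, limma adjusted p = 0.0408, and 0.00494 with the block), and rose by 0.59 in LPS against Media (SE 0.15, limma adjusted p = 0.0125, and 0.166 without scaling factors). The direct difference, Hevin against LPS, was -1.14 ± 0.15 (limma adjusted p = 8.61e-05), the largest in size of all 30 member values. Within numbers, Hevin minus Media was -0.72, -0.49, -0.47 and -0.54, and LPS minus Media was 0.80, 0.32, 0.44 and 0.79. The call against Media in Hevin was near the threshold: over all alternatives its adjusted p ran from 0.00291 to 0.183, and it was lost without any 1 Hevin or Media library or without LPS 3. Klf7 shares exonic sequence with the opposite-strand gene models Gm26649 and Gm13748, and the kit marks strand, but the use of strand in counting is not given in the sources used here.

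Klf10 (ENSMUSG00000037465.10, chr15:38291463-38300706, minus strand) is known as an early gene of the TGF-β response whose protein represses through the SIN3A corepressor. Klf10 had 42.7, 37.6, 37.9 and 41.5 FPKM in Hevin libraries 1 to 4, 31.2, 31.5, 14.9 and 17.7 FPKM in LPS libraries and 29.2, 25.3, 21.3 and 26.7 FPKM in Media libraries. All 4 Hevin libraries were above all others, and LPS spanned a wide range, high in numbers 1 and 2 and low in numbers 3 and 4. The means were 39.9 ± 2.55 FPKM in Hevin, 23.8 ± 8.74 FPKM in LPS and 25.7 ± 3.29 FPKM in Media (SD, n = 4 each), so the Hevin mean was 1.56 times that of Media.

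For Klf10 in Hevin against Media the log2 fold change was 0.63 ± 0.21 (limma adjusted p = 0.103, and 0.0168 with the block), with 0.53, 0.55, 0.80 and 0.62 within numbers 1 to 4. Klf10 was higher in Hevin than in LPS by 0.79 ± 0.21 (limma adjusted p = 0.00990). Between LPS and Media it was -0.17 ± 0.21 (adjusted p = 0.617), and the 4 numbers went different ways, at 0.09, 0.30, -0.49 and -0.57. The Hevin against Media value of Klf10 was also called under quantile normalization (adjusted p = 0.0276) and without LPS 3, with adjusted p between 0.00328 and 0.315 over the alternatives.

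Klf13 (ENSMUSG00000052040.10, chr7:63886351-63938915, minus strand), known for driving Ccl5 in T cells and, like Klf10, for recruiting SIN3A, showed smaller values in the same direction. Klf13 had 20.7, 19.0, 21.2 and 22.5 FPKM in Hevin libraries 1 to 4, 23.1, 13.9, 12.96 and 15.8 FPKM in LPS libraries and 19.2, 16.2, 16.3 and 16.5 FPKM in Media libraries. The Hevin libraries were above 3 of 4 Media libraries, and library 1 was the highest of its group in LPS and in Media. The log2 fold change was 0.28 ± 0.15 in Hevin against Media (adjusted p = 0.325), -0.08 ± 0.15 in LPS against Media (adjusted p = 0.755) and 0.36 ± 0.15 in Hevin against LPS (limma adjusted p = 0.0718, and 0.0195 with the block). Hevin was above Media in all 4 numbers, by 0.11, 0.22, 0.36 and 0.42.

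Klf4 (ENSMUSG00000003032.8, chr4:55527143-55532466, minus strand) is a factor of monocyte differentiation and a reprogramming factor. It had 19.5, 23.2, 26.3 and 26.9 FPKM in Hevin libraries 1 to 4, 12.3, 19.8, 19.7 and 14.3 FPKM in LPS libraries and 16.9, 30.8, 29.1 and 23.7 FPKM in Media libraries. Library 1 was the lowest in each group, and endothelial markers, which can accompany Klf4, were also lowest in number 1; their part in these values was not tested. Within every number LPS was below Media, with log2 differences of -0.43, -0.61, -0.54 and -0.70.

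In LPS against Media the log2 fold change of Klf4 was -0.57 ± 0.20, just short of the threshold (limma adjusted p = 0.0525) and past it with the block (adjusted p = 0.00134). In Hevin against Media it was -0.04 ± 0.20 (adjusted p = 0.944), with 2 numbers higher and 2 lower. Klf4 was higher in Hevin than in LPS by 0.53 ± 0.20 (limma adjusted p = 0.0491, and 0.00139 with the block). That call was lost when any of Hevin 2, Hevin 3, Hevin 4, LPS 1, LPS 4, Media 3 or Media 4 was left out, and its highest adjusted p among the alternatives was 0.263.

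Klf2 (ENSMUSG00000055148.7, chr8:72319033-72321656, plus strand), known for keeping endothelial cells, T cells and myeloid cells quiescent, had 18.1, 14.1, 15.9 and 20.3 FPKM in Hevin libraries 1 to 4, 17.5, 19.7, 16.8 and 13.1 FPKM in LPS libraries and 18.7, 19.7, 19.6 and 21.0 FPKM in Media libraries. The groups overlapped. The log2 fold change was -0.21 ± 0.13 in Hevin against Media (adjusted p = 0.410), -0.24 ± 0.13 in LPS against Media (adjusted p = 0.205) and 0.03 ± 0.13 in Hevin against LPS (adjusted p = 0.886). Klf2 was lower in Hevin than in Media in all 4 numbers, although the log2 difference was only -0.04 and -0.05 in numbers 1 and 4. The lowest level in LPS, 13.1 FPKM in library 4, stood beside the highest in Media, in library 4 as well.

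Klf3 (ENSMUSG00000029178.14, chr5:64803388-64832901, plus strand) encodes a repressor that works through CtBP proteins. It had 50.0, 45.2, 43.7 and 44.5 FPKM in Hevin libraries 1 to 4, 61.9, 46.7, 43.0 and 56.9 FPKM in LPS libraries and 50.3, 58.3, 51.6 and 50.1 FPKM in Media libraries. All Hevin libraries lay below all Media libraries, by a small margin. With Klf6 and Klf7 it made 3 of 10 members with this pattern, against 7.55% of tested genes, and Klf10 and Nr4a1 made 2 of 10 in the other direction, against 9.05%. The log2 fold change of Klf3 in Hevin against Media was -0.19 ± 0.11 and was not called (adjusted p = 0.375, and 0.190 with the block). The opposite-strand gene model Gm20033 shares exonic sequence with Klf3, with the same limit on strand as for Klf7.

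**Figure D3:**
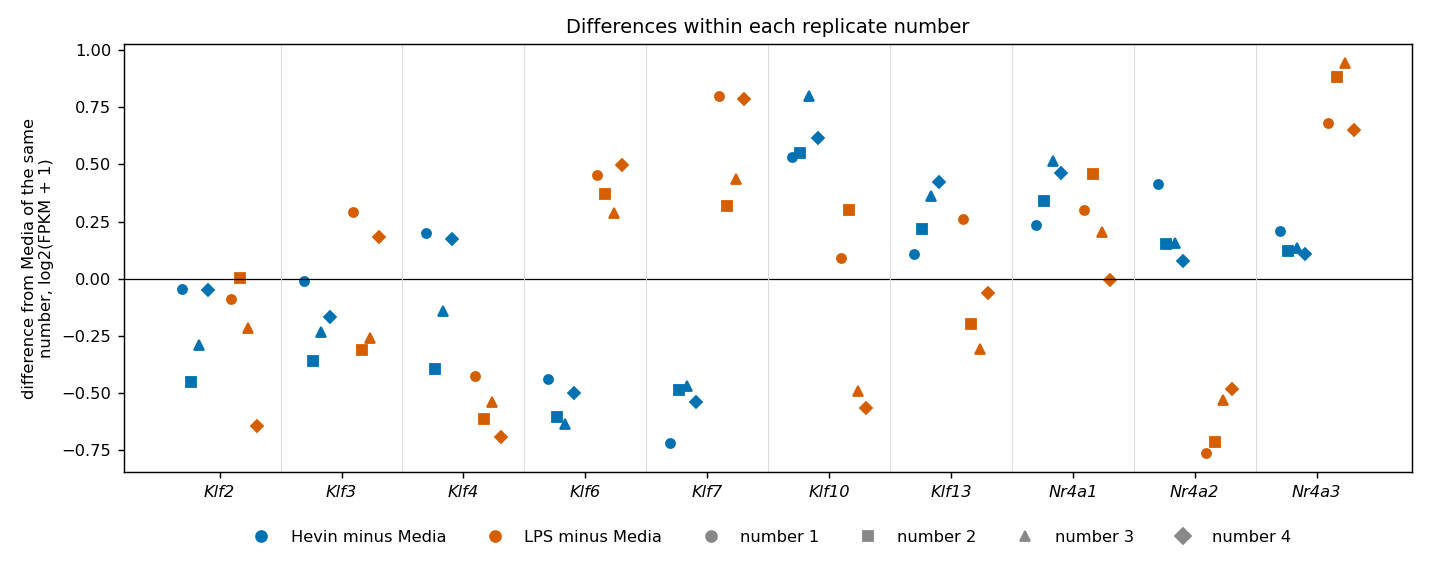
Difference from the Media library of the same replicate number on the log2(FPKM + 1) scale, for Hevin (blue) and LPS (orange), with 1 point shape per number. Klf6 and Klf7 lie below 0 in Hevin and above 0 in LPS in all 4 numbers, Klf10 lies above 0 in all 4 numbers of Hevin and in 2 of LPS, and Nr4a2 and Nr4a3 part in LPS; the Klf6 value of LPS changes sign under quantile normalization.

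Nr4a1 (ENSMUSG00000023034.7, chr15:101254269-101274795, plus strand), which encodes NUR77, known for limiting inflammatory activation of macrophages and microglia, was the most abundant NR4A gene. It had 63.9, 75.8, 68.8 and 82.5 FPKM in Hevin libraries 1 to 4, 66.9, 82.4, 55.2 and 59.4 FPKM in LPS libraries and 54.1, 59.8, 47.8 and 59.7 FPKM in Media libraries. Every Hevin library was above every Media library, while LPS overlapped each of the others. The means were 72.8 ± 8.15 FPKM in Hevin, 66.0 ± 11.98 FPKM in LPS and 55.3 ± 5.67 FPKM in Media (SD, n = 4 each).

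In Hevin against Media the log2 fold change of Nr4a1 was 0.39 ± 0.13 (limma adjusted p = 0.103, and 0.0137 with the block), with 0.23, 0.34, 0.52 and 0.46 within numbers. Between LPS and Media it was 0.24 ± 0.13 (adjusted p = 0.204, and 0.0601 with the block), and it turned to -0.03 under quantile normalization and -0.08 without scaling factors. Hevin and LPS differed by 0.15 ± 0.13 (adjusted p = 0.3899). This difference was larger under quantile normalization, at 0.48 (adjusted p = 0.0106), and without scaling factors, at 0.50 (adjusted p = 0.00686). Without scaling factors the median over all tested genes was 0.32 in Hevin against LPS and -0.29 in LPS against Media. Relative to these medians the unscaled Nr4a1 values were 0.19 in Hevin against LPS and 0.21 in LPS against Media.

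Nr4a2 (ENSMUSG00000026826.13, chr2:57106830-57124003, minus strand) encodes NURR1, which is needed for dopaminergic neurons and is known in microglia for repressing inflammatory genes with the CoREST complex. It had 9.17, 11.2, 9.28 and 8.64 FPKM in Hevin libraries 1 to 4, 3.50, 5.66, 5.39 and 5.53 FPKM in LPS libraries and 6.64, 9.96, 8.24 and 8.14 FPKM in Media libraries. All LPS libraries were below all others. The means were 9.56 ± 1.10 FPKM in Hevin, 5.02 ± 1.02 FPKM in LPS and 8.24 ± 1.36 FPKM in Media (SD, n = 4 each).

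Nr4a2 fell by 0.62 in LPS against Media (SE 0.15, limma adjusted p = 0.00846), with -0.76, -0.72, -0.53 and -0.48 within numbers, and its adjusted p over the alternatives ran from 0.000119 to 0.0520. With Klf7 as the member higher in LPS, it was the member lower in LPS whose libraries did not overlap with Media, 1 of 10 in each direction against 13.3% and 12.3% of tested genes. In Hevin against LPS it was higher by 0.82 ± 0.15 (limma adjusted p = 0.000911), a ratio of means of 1.90. In Hevin against Media the value was 0.20 ± 0.15 and was not called (adjusted p = 0.513).

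Nr4a3 (ENSMUSG00000028341.9, chr4:48045153-48086447, plus strand), which encodes NOR1, went the other way under LPS. It had 3.32, 5.99, 5.26 and 4.23 FPKM in Hevin libraries 1 to 4, 4.99, 10.9, 9.95 and 6.61 FPKM in LPS libraries and 2.73, 5.43, 4.70 and 3.84 FPKM in Media libraries. The groups overlapped, and number 1 was the lowest and number 2 the highest in each group. Within each number LPS was above Media, with log2 differences of 0.68, 0.89, 0.94 and 0.65.

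Nr4a3 rose by 0.79 in LPS against Media (SE 0.24, limma adjusted p = 0.0298, and 2.77e-05 with the block), a ratio of means of 1.94. It was lower in Hevin than in LPS, at -0.65 ± 0.24 (limma adjusted p = 0.0465, and 7.47e-05 with the block), while Hevin against Media gave 0.14 ± 0.24 (adjusted p = 0.821). The LPS against Media call was lost without LPS 2, LPS 3, Media 1 or Media 4 (adjusted p up to 0.0846), with upper quartile scaling (0.0637) and without scaling factors (0.121). The Hevin against LPS call was lost without Hevin 1, Hevin 3, Hevin 4, LPS 2, LPS 3, LPS 4, Media 3 or Media 4 (adjusted p up to 0.126), with upper quartile scaling (0.116) and without scaling factors (0.290). Over all alternatives the adjusted p ran from 1.03e-06 to 0.126 for LPS against Media and from 4.69e-06 to 0.290 for Hevin against LPS.

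Ratios of members within a library are not changed by a scaling factor applied to the whole library, though quantile normalization does change them, and they are given as a description with no test. Nr4a3 over Nr4a2 was 0.489 ± 0.0903 in Hevin, between 0.362 and 0.567, 1.598 ± 0.346 in LPS, between 1.19 and 1.92, and 0.500 ± 0.0722 in Media, between 0.412 and 0.570. Nr4a3 was the higher of the pair in all 4 LPS libraries and the lower in the other 8. Klf6 over Klf10 was 7.54 ± 1.47 in Hevin (6.27 to 9.60), 26.0 ± 6.15 in LPS (19.2 to 32.6) and 17.3 ± 3.58 in Media (13.8 to 21.7). The Hevin libraries were below all others in this ratio, which follows from their Klf6 being below and their Klf10 above all others. Klf7 over Klf13 was 0.395 ± 0.0461 in Hevin, 1.23 ± 0.298 in LPS and 0.739 ± 0.0989 in Media (SD, n = 4 in each group).

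**Figure D4:**
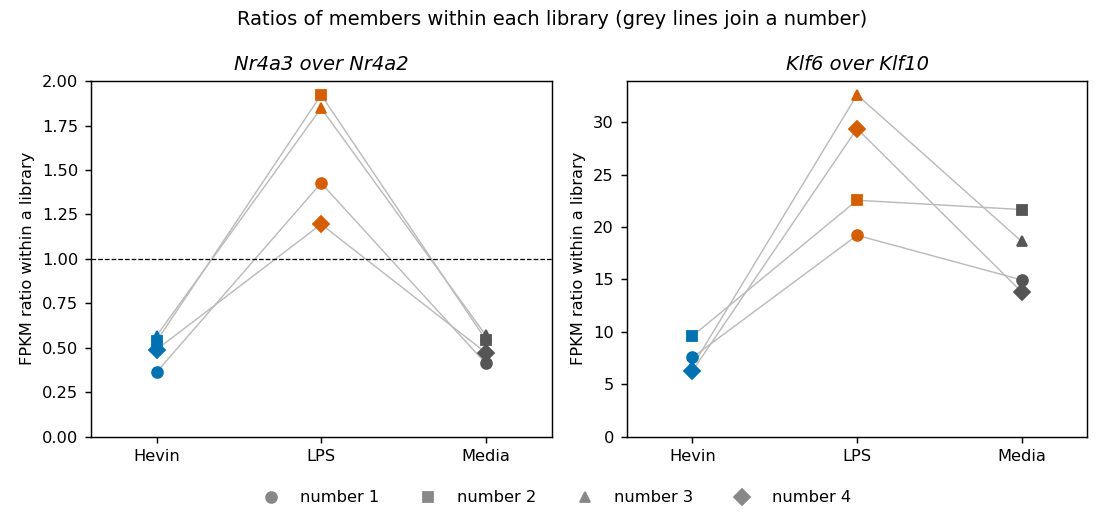
FPKM ratio within each library of Nr4a3 over Nr4a2 (left, dashed line at equal levels) and of Klf6 over Klf10 (right), by treatment, with grey lines joining the libraries of a replicate number. Nr4a3 exceeds Nr4a2 in the 4 LPS libraries, at 1.19 to 1.92, and in 0 of the 8 others, and Klf6 over Klf10 is lowest in the 4 Hevin libraries, at 6.27 to 9.60.

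The members differed in how much of their variation followed the treatment. For Klf7 85.6% of the sum of squares of log2(FPKM + 1) lay between treatments and 8.16% between replicate numbers. Nr4a2 and Klf6 also followed treatment, at 78.0% and 77.2%. For Nr4a3 the treatment held 52.9% and the number 45.3%, and for Klf4 48.4% and 41.3%. Klf2 had the largest remainder, 69.1%, tied to neither.

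**Figure D5:**
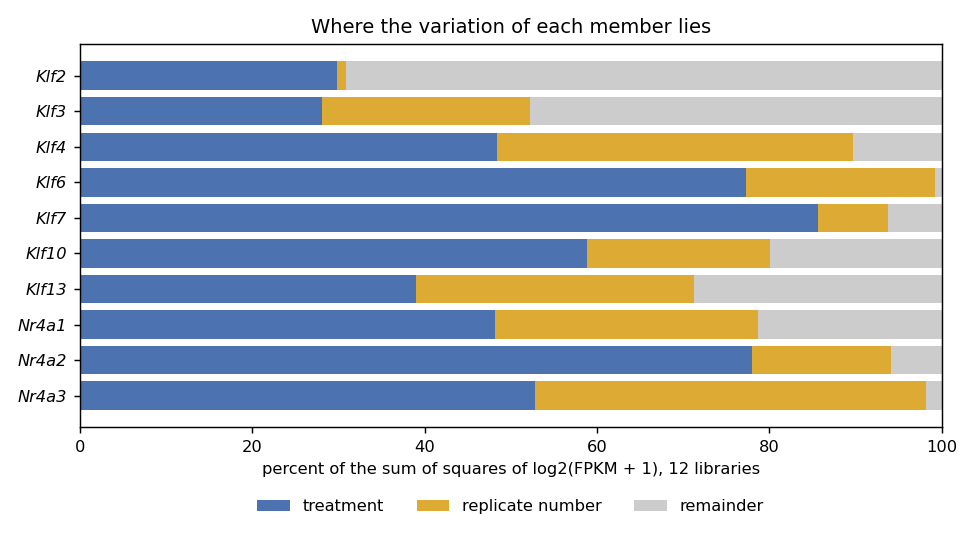
Percent of the sum of squares of log2(FPKM + 1) over 12 libraries that lies between treatments, between replicate numbers and in the remainder, for each member. The treatment share is largest in Klf7 (85.6%), the number share in Nr4a3 (45.3%) and the remainder in Klf2 (69.1%).

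Of the other KLF and SP family genes, 8 were tested. In Hevin against Media 1 was lower, Klf15, known for metabolic and glucocorticoid responses, at 1.91 ± 0.372 FPKM in Hevin and 3.33 ± 0.437 FPKM in Media (SD, n = 4 each; limma adjusted p = 0.0264). The block added 2 higher genes in that comparison, Klf9 and Klf11. Between LPS and Media 0 were called by limma or limma-voom in either direction, and 2 were higher and 1 lower at an unadjusted p under 0.05 as well as with the block. In Hevin against LPS Klf9 was higher (0.70 ± 0.25, adjusted p = 0.0384) and Sp2 lower (-0.42 ± 0.10, adjusted p = 0.00478). Klf11, Klf16, Sp1, Sp3 and Sp4 were not called in any of the 3 comparisons without the block. The backgrounds without the block were 4.27% higher and 3.10% lower in Hevin against Media and 13.2% and 12.6% in LPS against Media. For Hevin against LPS they were 22.0% and 19.7%. With the block the backgrounds were 10.8% and 10.6% in Hevin against Media and 21.5% and 22.2% in LPS against Media.

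Upstream of Klf2 and Klf4 lies the ERK5 pathway, which acts through MEF2 factors. Of its 7 tested genes, 3 were lower in LPS than in Media and 0 were called in Hevin against Media by limma or limma-voom (1 higher and 1 lower at an unadjusted p under 0.05 as well as with the block). Mef2c fell to 4.98 ± 1.81 FPKM in LPS, against 19.0 ± 5.70 FPKM in Media (SD, n = 4 each; log2 fold change -1.75 ± 0.25, limma adjusted p = 0.000359). Mef2d fell by 0.61 (SE 0.16, limma adjusted p = 0.0141) and Map3k3 by 0.28 (adjusted p = 0.0409). Mef2a was 75.2 ± 15.8 FPKM in Hevin and 48.9 ± 8.83 FPKM in Media, not called without the block (adjusted p = 0.0553) and called with it (6.04e-05). Among 7 tested genes known as regulated by KLF2 or KLF4 in other cells, the sphingosine 1-phosphate receptor gene S1pr1, a KLF2 target in T cells, rose to 135 ± 14.3 FPKM in Hevin and was 25.0 ± 5.41 FPKM in LPS, against 39.6 ± 3.21 FPKM in Media (limma adjusted p = 9.44e-06 for Hevin and 0.00339 for LPS). Endothelin gene Edn1, which KLF2 represses in endothelial cells, rose by 2.94 in LPS against Media (SE 0.36, limma adjusted p = 0.000113). In that list 1 gene was higher and 0 lower in Hevin against Media (2 and 2 at an unadjusted p under 0.05, 1 and 0 by limma-voom, 2 and 2 with the block), and 2 were higher and 1 lower in LPS against Media, of which Cdkn1a changed sign under quantile normalization (0.50 and -0.19 in LPS against Media). For both lists the limma backgrounds were 4.27% higher and 3.10% lower in Hevin and 13.2% and 12.6% in LPS, against Media. With the block those for Hevin were 10.8% and 10.6%.

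For the CREB arm upstream of the NR4A genes, 10 genes were tested. Crem, which encodes activating and repressing forms of a CREB relative, fell to 21.1 ± 4.57 FPKM in Hevin, against 40.1 ± 2.36 FPKM in Media (SD, n = 4 each; limma adjusted p = 0.000692), and was the 1 gene of this list called in that comparison. Under LPS, relative to Media, the coactivator gene Crtc2 rose by 0.66 (SE 0.07, limma adjusted p = 4.42e-05) and Creb1 rose by 0.37 (limma adjusted p = 0.0147). Without scaling factors the Creb1 value was 0.06 on the log2 scale, where the median over all tested genes was -0.29. Prkaca, a catalytic subunit of protein kinase A, fell by 0.57 in LPS against Media (SE 0.10, limma adjusted p = 0.00149). Rxra, the retinoid X receptor that pairs with NUR77 and NURR1, fell by 0.82 in LPS against Media (SE 0.18, limma adjusted p = 0.00687). Among 11 corepressor genes, 2 were higher in Hevin than in Media: Kdm1a, the histone demethylase of the CoREST complex, at 51.0 ± 7.51 FPKM in Hevin and 26.2 ± 2.63 FPKM in Media (SD, n = 4 each; limma adjusted p = 0.000579), and Sin3a (0.39 ± 0.10, adjusted p = 0.0392). Limma called 4.27% of all tested genes higher and 3.10% lower in Hevin, and 13.2% and 12.6% in LPS, against Media.

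The other immediate early genes were read at 6 h only, and no earlier time was sampled. Of 18 tested, 1 was higher and 4 were lower in Hevin than in Media (backgrounds 4.27% and 3.10%), with a median log2 fold change of -0.37. In LPS against Media 8 were higher and 2 lower (backgrounds 13.2% and 12.6%), with a median of 0.41. Medians over all tested genes were 0.00 and -0.02. With the block, 11 were lower in Hevin than in Media (background 10.6%) and 11 higher in LPS than in Media (background 21.5%). The LPS against Media median was 0.12 under quantile normalization, with 4 higher and 2 lower, and 0.09 without scaling factors, with 5 higher and 3 lower (medians over all tested genes -0.05 and -0.29). All 11242 tested genes held 1118 higher and 1664 lower under quantile normalization, and 736 and 4990 without scaling factors. In Hevin against Media 2 of the list were lower under quantile normalization, against 438 of all tested genes. Fos was the gene that rose in Hevin, by 0.51 (SE 0.10, limma adjusted p = 0.00903), and Fosl1, Dusp1, Btg2 and Zfp36 fell. In LPS, Zfp36, whose product destabilises cytokine mRNAs, rose by 2.07 (SE 0.09, limma adjusted p = 2.34e-08), while Fos and Egr2 fell.

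By correlation of log2(FPKM + 1) over the 12 libraries among 7631 genes, the gene most like Klf6 was Cirh1a (r = 0.982), and the gene most like Klf10 was Pip5k1c (r = 0.973). The 3 genes most like Klf7 were Lrrc25 (r = 0.972), Layn (r = 0.971) and Gja1 (r = 0.9698). Nr4a3 was most like Gadd45a (r = 0.936), Nr4a2 most like Ddx26b (r = 0.950) and Nr4a1 most like Dnajb12 (r = 0.837). For the rest, Klf2 was most like Ppan (r = 0.922), Klf3 most like Eif4e2 (r = 0.934), Klf4 most like Ano6 (r = 0.949) and Klf13 most like Efhd2 (r = 0.925). Between members the highest value was that of Klf4 and Nr4a2 (r = 0.81) and the lowest that of Klf7 and Nr4a2 (r = -0.83). These values are a description over libraries that share treatments, replicate numbers and scaling. Gja1 is also on the astrocyte list and was 18.7 to 33.2 FPKM in Hevin, 109 to 225 FPKM in LPS and 47.6 to 74.6 FPKM in Media, while the other astrocyte genes summed to 1.86 to 13.01 FPKM in Hevin, 2.43 to 17.4 FPKM in LPS and 2.55 to 12.6 FPKM in Media.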

How the data were processed

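The authors deposited FPKM values, 1 column per library, in a single table of 14541 gene symbols, 22 of them altered into dates. The submitters' processing notes give the build mm10 and name, without roles, Bowtie2 2.3.5.1, Subread 1.6.3 with featureCounts, Trimmomatic 0.39, FastQC 0.11.7, and edgeR 3.30.3 under R 4.0.0. Per the labels' protocols, a stranded mRNA kit was used on 100 ng of RNA. Annotation, strand setting and any filter on the listed genes: not given in the sources used here.

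In all listed genes the FPKM values were whole multiples of 1 read within 0.1, so reads, depth and the library scaling factors behind the deposited FPKM (0.804 to 0.897 in LPS, 1.02 to 1.16 in Hevin and Media) were recovered. All 3 groups entered 1 limma 3.58.1 model (R 4.3.3) of log2(FPKM + 1) for genes reaching 1 FPKM in 4 or more libraries, with the variance trend of eBayes and no block. Log2 fold changes are on that scale, on which lowly expressed genes appear to change less than they do. Benjamini-Hochberg adjustment covered all 11242 tested genes, with a threshold of 0.05. The code was tested on simulated data.

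Titles number the libraries 1 to 4 in each group, and the deposited column names join those of a number under a further label. Deviations from group means correlated in all 12 same-number pairs (0.230 to 0.784). Between different numbers the mean was -0.201, which centring on group means pulls below 0. Numbers 3 and 4 were not clearly set apart, with 0.528 for LPS 4 and Media 3 against 0.230 for LPS 4 and Media 4. The pairing thus rests on the deposited column names, and values with the replicate number as a block are printed where they change a call.

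All members are named, with list genes that passed the test against Media, the other tested KLF and SP genes, and the genes of highest correlation among those with a mean of at least 5 FPKM in 1 group, unnamed gene models left out; not all of these are printed. The members and lists were chosen with earlier results of these data known. Alternatives were pseudocounts of 0.1 and 5, no filter or 5 FPKM, only both groups compared, no trend, quantile, upper quartile or no scaling, limma-voom on recovered reads, the block, and leaving out each library or number. Gene positions are from GENCODE M21 and figures were drawn with matplotlib 3.10.9.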

Additional observations from a re-analysis of the deposited data

Results flagged for a closer look

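Dixon's test for a library apart from the rest of its group was applied to the 30 sets of 4 libraries (10 members in 3 groups), where chance marks about 1 in 20. It marked 2. Klf13 in Media was 19.2 FPKM in library 1 against 16.2 to 16.5 FPKM in the other 3 libraries, a gap of 0.881 of the whole range. Nr4a2 in LPS was 3.50 FPKM in library 1 against 5.39 to 5.66 FPKM in the other 3, a gap of 0.873 of the range.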

How the results depend on the processing

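Of 840 member values under alternatives, 710 kept direction and side of the threshold, 66 lost the threshold, 43 gained it and 21 changed sign; the causes were not tested. For LPS against Media and Hevin against LPS the scaling matters most: without scaling factors the median of all genes moved to -0.29 and 0.32, and 736 genes were called higher and 4990 lower in LPS than in Media, against 1484 and 1413. Relative to that median, the unscaled LPS against Media values were 0.37 for Klf6, 0.57 for Klf7, 0.81 for Nr4a3, 0.21 for Nr4a1 and -0.61 for Nr4a2.

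Members called higher in Hevin against Media numbered 0, but 1 with only both groups compared, 2 with quantile normalization, and 2 with the replicate block, also on voom; leaving out 1 library gave 0 to 1. Of all 11242 tested genes 480 were called higher, but 531 with only both groups compared, 530 with quantile normalization, 1210 with the block and 1363 with the block on voom. Members called lower numbered 1, but 0 with a pseudocount of 5, no filter, voom, or without numbers 1, 3 or 4, and 2 with the block, also on voom; leaving out 1 library gave 0 to 2. Lower calls over all tested genes were 349, but 102 without number 3, 91 without number 4 and 1196 with the block. They numbered 330 with a pseudocount of 5, 312 of 14541 with no filter, 353 with voom, 239 without number 1 and 1366 with the block on voom. Members called higher in LPS against Media numbered 2, but 1 with only both groups compared, upper quartile scaling or without number 1, 0 without scaling factors or without number 3 or 4, and 4 with the block on voom; leaving out 1 library gave 1 to 3. Members called lower numbered 1, but 2 with the 5 FPKM filter, upper quartile scaling, the block, the block on voom or without number 1, 5 without scaling factors, and 0 without number 3 or 4; leaving out 1 library gave 1 to 2. Calls over all tested genes in LPS against Media were 1484 higher and 1413 lower. They moved to 736 and 4990 without scaling factors, 1136 and 2466 with upper quartile scaling, and 792 and 531 without number 4. With the block they were 2416 and 2498, and with the block on voom 2438 and 2519. Only both groups compared gave 1267 and 1011, leaving out number 1 gave 1094 and 1113, and leaving out number 3 gave 947 and 672. The 5 FPKM filter gave 1362 and 1062 of 7768. Members higher in Hevin against LPS numbered 3, but 5 with quantile normalization, 6 without scaling factors and 1 without number 4 (2 to 3 when leaving out 1 library). All tested genes called higher there numbered 2470, but 2439 with quantile normalization, 5398 without scaling factors and 1492 without number 4. Members lower in Hevin against LPS numbered 3 and stayed within 1.5 times of that under all alternatives (2 to 3 when leaving out 1 library). Lower genes among all tested numbered 2215, but 971 without scaling factors. The block changed no call of a member beyond those printed beside the results.

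Sign changes in Hevin against Media were those of Klf4 (-0.212 to 0.0654 when leaving out 1 library, 0.0769 without number 2) and Nr4a3 (-0.00427 to 0.269 when leaving out 1 library). In LPS against Media they were those of Klf3 (-0.111 to 0.0608 when leaving out 1 library, 0.0716 without number 2, 0.0528 without number 3), Klf10 (-0.319 to 0.0242) and Klf13 (-0.245 to 0.0183) when leaving out 1 library, Klf6 with quantile normalization (-0.18), and Nr4a1 with quantile normalization (-0.0279) or no scaling factors (-0.0848). In Hevin against LPS they were those of Klf2 (-0.0801 to 0.110 when leaving out 1 library, -0.16 without number 4) and Klf3 with quantile normalization (0.10) or no scaling factors (0.18).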
